A study of Mus musculus with 4 samples.

Results

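The accessible chromatin regions assigned to En1, Lmx1b and Wnt7a, the genes that set the dorsoventral axis of the limb bud, were described in the E9.5 and E10.5 region lists of mouse forelimb buds. A region belonged to a gene when its centre lay nearest to a transcription start of that gene among all protein-coding starts, or within 2.5 kb of such a start. By this rule 44 of 42613 regions belonged to the 3 genes at E9.5 (En1 14, Lmx1b 25, Wnt7a 5). At E10.5, 40 of 46765 regions did (En1 18, Lmx1b 19, Wnt7a 3).

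The assay was ATAC-seq, which reads open chromatin from the places where a transposase can insert adapters. All embryos were wild type and of the NMRI strain, and a replicate was the pair of forelimb buds from 1 embryo. The earlier group, named E9.5 in the sample titles although the protocol also gives a slightly later age, kept the attached piece of trunk. The later group was E10.5 forelimb buds, whose tissue label names hindlimb buds as well. Stage and trunk tissue cannot be told apart, and fewer open cells of one type cannot be told apart from less accessible chromatin per cell. The 2 replicates of each stage entered 1 combined list, so values have no replicate error, sequencing depth is unknown, and no comparison between the stages has a test.

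In the limb bud, Wnt7a is the secreted ligand made by dorsal ectoderm that induces Lmx1b in the mesenchyme beneath it. Lmx1b encodes a LIM-homeodomain factor that gives the mesenchyme its dorsal identity. En1 encodes a homeodomain repressor that BMP signalling switches on in ventral ectoderm, where it keeps Wnt7a off. All 3 genes are also used in the trunk, among other places in the neural tube.

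The deposited score of a region grows with the significance of its read enrichment and also with sequencing depth. Scores were therefore compared between the stages only as percentiles, the share of regions of the same list with a lower score. A region was shared when 1 bp or more of it lay in any region of the other list, and stage-specific when none did. Distances run in the direction of transcription from the outermost start of the gene (GENCODE vM1 on mm9), so negative values lie upstream. Intervals on shares are 95% Wilson intervals that cover counting error only.

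En1 (ENSMUSG00000058665.7) lies at chr1:122498995-122505873 on the plus strand, is 6.88 kb long and has 1 start. Its neighbours by start are Marco, 97.3 kb away on the upstream side, and Insig2, 704.9 kb away on the downstream side. Lmx1b (ENSMUSG00000038765.5) lies at chr2:33416485-33496031 on the minus strand and is 79.5 kb long, with 2 starts, between Zbtb43 on the downstream and Fam125b on the upstream side. Wnt7a (ENSMUSG00000030093.6) lies at chr6:91313975-91361357 on the minus strand and is 47.4 kb long, with 3 starts, between Fbln2 downstream and Chchd4 upstream. The outermost annotated Lmx1b start is the first base of its coding sequence. The RefSeq start of Lmx1b, placed on mm9 by an exact match of its sequence, lay 587 bp further upstream. The RefSeq starts of En1 and Wnt7a lay within 69 bp and 10 bp of the annotated ones.

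The stretch of chromosome nearest to each gene was 401 kb for En1, 213 kb for Lmx1b and 127 kb for Wnt7a, against a median of 45.5 kb over 22380 protein-coding genes. Lmx1b had the densest set, with 11.7 regions per 100 kb at E9.5 and 8.91 at E10.5. En1 had 3.49 and 4.49 regions per 100 kb, Wnt7a had 3.94 and 2.36, and all genes together had 1.65 and 1.81. By number of regions Lmx1b stood at the percentile 99.9 of all genes at E9.5 and 99.3 at E10.5. En1 stood at the percentile 99.2 at both stages, and Wnt7a at 90.8 and then 79.8. The outermost E9.5 regions inside these stretches lay 15.7 kb upstream and 309 kb downstream of the En1 start, and the next ones outside lay 133 and 362 kb away. The same distances for Lmx1b were 113.5 kb upstream and 82.1 kb downstream inside, and 141 and 96.5 kb outside. For Wnt7a they were 29.6 kb upstream and 65.2 kb downstream inside, and 62.1 and 109 kb outside. Around the 2.5 kb limit, the farthest promoter region lay at -2371 bp (Lmx1b, E10.5), and the closest distal regions lay at 3198 bp (E10.5) and 3498 bp (E9.5), both from the second Lmx1b start.

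The sequences that follow are those on which the comparisons turn, read from the mm9 genome. They are the 200 bases before each gene's start and the central 200 bases of high-scoring shared distal and stage-specific regions. Capitals mark matches, on either strand, to 6 motifs: the homeodomain core TAATTA, the TCF/LEF site CTTTGAT, the GC-rich SMAD site GGCGCC, the SMAD box CAGACA, the E-box CATCTG and the TALE homeodomain site TGACAG. The homeodomain core and the GC-rich SMAD site read the same on both strands, and the SMAD box can overlap the TALE site by their ends. The 3 promoters are given in the direction of transcription, with the Lmx1b one taken before its RefSeq start, and the other windows on the plus strand.
En1 promoter (chr1:122498795-122498994, plus strand): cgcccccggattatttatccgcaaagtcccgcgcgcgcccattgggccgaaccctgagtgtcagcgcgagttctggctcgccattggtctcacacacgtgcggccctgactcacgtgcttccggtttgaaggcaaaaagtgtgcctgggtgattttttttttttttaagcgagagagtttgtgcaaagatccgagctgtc
Lmx1b promoter (chr2:33496619-33496818, minus strand): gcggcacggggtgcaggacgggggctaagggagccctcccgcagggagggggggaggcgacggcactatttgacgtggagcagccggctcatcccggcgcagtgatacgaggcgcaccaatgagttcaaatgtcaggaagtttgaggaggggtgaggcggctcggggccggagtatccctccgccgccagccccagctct
Wnt7a promoter (chr6:91361358-91361557, minus strand): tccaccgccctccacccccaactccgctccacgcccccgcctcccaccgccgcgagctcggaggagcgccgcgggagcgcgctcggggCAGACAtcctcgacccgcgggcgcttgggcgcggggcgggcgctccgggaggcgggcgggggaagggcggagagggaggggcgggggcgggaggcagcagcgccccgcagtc
Within these windows CAGACA was found in the Wnt7a promoter, at base 89 of the window, and no motif was found in the En1 and Lmx1b promoters. Of the 200-base windows before all 22380 protein-coding genes, 12.3% held CAGACA.

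The shared distal windows come from the region of each gene with the highest score at E10.5, 139 kb downstream of the En1 start, at -60.5 kb from Lmx1b and at -29.6 kb from Wnt7a. None of the 6 motifs was found in them.
En1 shared distal (chr1:122638110-122638309, plus strand): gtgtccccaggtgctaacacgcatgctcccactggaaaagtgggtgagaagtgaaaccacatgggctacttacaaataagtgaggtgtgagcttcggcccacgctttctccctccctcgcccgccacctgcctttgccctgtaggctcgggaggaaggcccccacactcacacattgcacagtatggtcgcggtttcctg
Lmx1b shared distal (chr2:33556391-33556590, plus strand): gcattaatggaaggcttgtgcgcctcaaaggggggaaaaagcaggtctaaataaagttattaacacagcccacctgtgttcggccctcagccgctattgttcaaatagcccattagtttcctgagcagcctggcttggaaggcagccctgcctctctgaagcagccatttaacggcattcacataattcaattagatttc
Wnt7a shared distal (chr6:91390815-91391014, plus strand): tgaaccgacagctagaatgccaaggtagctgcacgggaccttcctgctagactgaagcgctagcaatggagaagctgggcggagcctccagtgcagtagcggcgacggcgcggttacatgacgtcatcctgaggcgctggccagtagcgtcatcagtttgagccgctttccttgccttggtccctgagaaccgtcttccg
The E9.5-specific windows lie at -2.24 kb from the En1 start, 57.6 kb into Lmx1b and 65.2 kb from the Wnt7a start, beyond the end of the gene. The En1 window held CTTTGAT at base 141 and TGACAG at base 170, and the Wnt7a window held TGACAG at bases 103 and 148.
En1 E9.5-specific (chr1:122496660-122496859, plus strand): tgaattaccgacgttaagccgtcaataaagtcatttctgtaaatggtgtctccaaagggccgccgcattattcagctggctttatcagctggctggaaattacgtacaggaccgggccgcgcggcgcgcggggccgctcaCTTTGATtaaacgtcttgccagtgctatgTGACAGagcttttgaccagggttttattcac
Lmx1b E9.5-specific (chr2:33438366-33438565, plus strand): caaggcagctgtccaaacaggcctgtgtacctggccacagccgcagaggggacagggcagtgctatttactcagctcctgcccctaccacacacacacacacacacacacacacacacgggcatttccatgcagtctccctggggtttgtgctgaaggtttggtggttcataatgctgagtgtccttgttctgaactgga
Wnt7a E9.5-specific (chr6:91296057-91296256, plus strand): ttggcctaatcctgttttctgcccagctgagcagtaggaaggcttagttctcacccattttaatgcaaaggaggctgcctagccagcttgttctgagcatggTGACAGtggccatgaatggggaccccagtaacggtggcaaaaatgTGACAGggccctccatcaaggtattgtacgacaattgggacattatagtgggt
An E10.5-specific window is given for Lmx1b, at -65.6 kb, and Wnt7a had no such region. The Lmx1b window held 3 motifs, CTTTGAT at base 27, CAGACA at base 49 and TAATTA at base 155.
Lmx1b E10.5-specific (chr2:33561509-33561708, plus strand): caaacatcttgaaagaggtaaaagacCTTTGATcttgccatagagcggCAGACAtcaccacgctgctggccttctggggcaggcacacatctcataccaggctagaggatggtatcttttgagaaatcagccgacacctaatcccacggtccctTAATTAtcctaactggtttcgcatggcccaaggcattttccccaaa
A match describes letters in the window and not a bound site.

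Wnt7a, the dorsal ectodermal ligand, lost rank and regions between the E9.5 and the E10.5 list. The region over its outermost start (E9.5 chr6:91360673-91362281) scored 319 at E9.5, percentile 55.9, and 106 at E10.5, percentile 11.2. The region 1.56 kb inside the gene, in an intron, scored 296 at E9.5, percentile 53.8, and 89.2 at E10.5, percentile 4.68. Both promoter regions therefore stayed open by the overlap rule but stood 44.7 and 49.1 percentile points lower in the later list. A fall of over 20 points was found for 13.1% of all shared E9.5 regions. Among the 14190 shared promoter regions it was 11.1%, and the median difference was -1.47 points. When percentiles were taken among promoter regions or distal regions alone, 1 of these 2 Wnt7a regions stayed over 20 points lower.

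A pair of E9.5-specific regions lay downstream of Wnt7a, in the intergenic stretch before Fbln2, so 2 of its 5 regions had no E10.5 counterpart, beside 29.9% of all E9.5 regions. The stronger one, 65.2 kb from the start (chr6:91295553-91296760), scored 810, percentile 75.7, the highest of all E9.5-specific regions of the 3 genes. Of all E9.5 regions in the same score decile and of the same class, promoter or distal, 13.8% were stage-specific. The other, 63.4 kb from the start, scored 205, percentile 41.8. No E10.5 region assigned to Wnt7a lay downstream of the gene. The only shared distal region of Wnt7a lay at -29.6 kb, next to the lincRNA gene 4930471M09Rik. It scored 611 at E9.5, percentile 70.2, and 675 at E10.5, percentile 78.3, so it kept its high rank while the promoter regions did not.

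**Figure D1:**
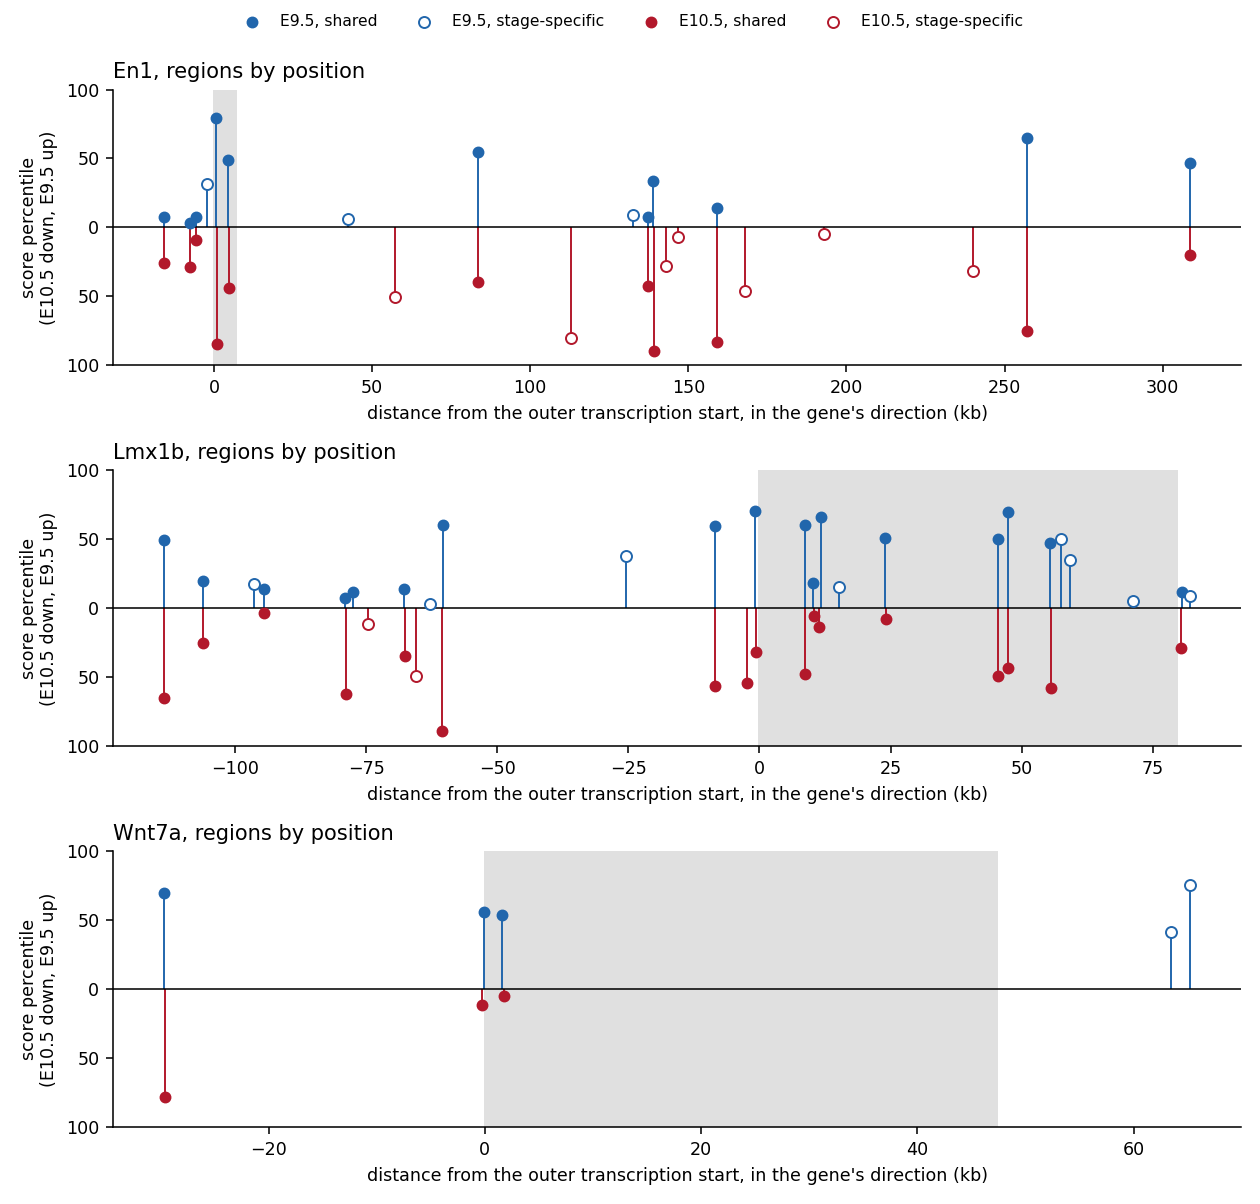
Regions of En1, Lmx1b and Wnt7a by distance from the outermost start (x axis, kb in the direction of transcription) and score percentile within their own list (y axis, E9.5 upward in blue and E10.5 downward in red), with filled points for shared regions, open points for stage-specific ones and grey for the gene body. The 7 E10.5-specific regions of En1 all lie downstream of the gene, the upstream regions of Lmx1b reach percentile 89.0 at E10.5, and Wnt7a has open points at E9.5 only.

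Lmx1b, the dorsal mesenchymal factor that Wnt7a induces, had regions within 2.5 kb of both starts at both stages. At E9.5 a single region of 4693 bp (chr2:33494600-33499292) covered the outer start and the RefSeq start, with a score of 613 at percentile 70.3. At E10.5 this stretch held 2 narrower regions, and the annotated outer start lay in neither. The one over the RefSeq start, at -0.587 kb, scored 156 at percentile 31.5, a difference of -38.8 points, and the one at -2.37 kb scored 273 at percentile 54.3. The lincRNA gene C130021I20Rik overlaps this stretch. At the second start the region scored 380.4 at E9.5, percentile 60.3, and 226 at E10.5, percentile 47.6. The region next to it, 1952 bp from the second start at E9.5, scored 124 and then 92.0, at percentiles 18.7 and 5.37. All 3 E9.5 regions within 2.5 kb of an Lmx1b start thus ranked lower at E10.5, with differences from -12.7 to -16.0 points to their highest-scoring partners. The 5% to 95% range of all shared promoter regions, also to their highest-scoring partners, was -31.7 to 14.3 points, and these 3 differences lay inside it. The region over the RefSeq start was not the highest-scoring partner, so its -38.8 points cannot be set beside that range.

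Inside the Lmx1b gene, intronic regions mostly stood lower at E10.5. The highest-scoring of them at E9.5, at 47.5 kb, scored 610.4 at percentile 70.2, and its E10.5 partner scored 201.2 at percentile 42.9. At 11.7 kb the scores were 499 and 111, at percentiles 66.2 and 13.6, the largest fall among the shared regions of the 3 genes. At 24.0 kb they were 271 and 100.3, at percentiles 51.3 and 7.80. Over the 7 shared regions of the gene body the median difference was -13.3 points, with 3 over 20 points lower, beside 13.1% of all shared regions and 14.9% of distal ones, and 0 over 20 points higher, beside 14.3% and 24.5%. The gene body also held 4 of the 8 E9.5-specific regions of Lmx1b and none of the 2 E10.5-specific ones. Its share was 4 of 11 regions at E9.5, beside 29.9% of all E9.5 regions and 40.3% of distal ones. At E10.5 it was 0 of 7, beside 35.0% and 49.6%. The 4 E9.5-specific regions lay at 57.6 kb (score 260.5, percentile 50.01), 59.3 kb (score 173, percentile 34.8), 15.2 kb (score 117, percentile 15.3) and 71.2 kb (score 95.6, percentile 5.41). Those at 57.6 and 59.3 kb were direct neighbours, and the remaining 2 were weak.

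Upstream of Lmx1b most ranks moved the other way. The shared region at -60.4 kb (E9.5 chr2:33555818-33556945) scored 389 at E9.5, percentile 60.8, and 1179 at E10.5, percentile 89.0, the highest score of Lmx1b in either list. The neighbouring E9.5 regions at -77.6 kb and -79.1 kb scored 110.5 and 102, at percentiles 12.2 and 7.47, and both overlapped 1 E10.5 region that scored 353 at percentile 62.3. The region at -67.8 kb scored 114 and then 166, at percentiles 14.1 and 34.6. At -113.5 kb, in an intron of Fam125b, the scores were 256 and 393, at percentiles 49.5 and 65.2. The shared upstream regions at -0.915, -8.50 and -94.4 kb ranked lower at E10.5, with differences of -16.0, -3.74 and -10.8 points. Over all 9 shared upstream regions of Lmx1b the median difference was 15.7 points, with 4 over 20 points higher and 0 over 20 points lower. These values use the highest-scoring partner, so the E10.5 region over the RefSeq start is not among them. Of all shared E9.5 regions 14.3% stood over 20 points higher, and of the distal ones 24.5%. The regions at -77.6 and -79.1 kb, which share their partner, are 2 of the 4. Enhancers that keep Lmx1b on in the dorsal limb mesenchyme and are bound by Lmx1b itself are known upstream of the gene, and their positions were not compared with these regions.

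Of the 19 E10.5 regions of Lmx1b 2 were stage-specific, beside 35.0% of all E10.5 regions, and both lay in the same upstream stretch. They were at -65.6 kb (score 234, percentile 48.9), the region whose window held the 3 motifs given above, and at -74.7 kb (score 107, percentile 11.3). The remaining E9.5-specific regions lay upstream at -25.5 kb (score 186, percentile 37.9), -62.9 kb (score 84.0, percentile 2.90) and -96.5 kb (score 123, percentile 17.8), and downstream of the gene at 82.1 kb (score 104, percentile 8.88). Apart from the one at 57.6 kb, all E9.5-specific regions of Lmx1b stood at percentile 37.9 or lower.

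En1, the ventral ectodermal repressor, kept a strong region over its start at both stages. The region (E9.5 chr1:122498436-122500901) scored 983 at E9.5, percentile 79.5, and 942 at E10.5, percentile 84.9, and its width was 2466 bp and 3173 bp. It was the highest-scoring region of the 3 genes at E9.5. A second promoter region at -2.24 kb (chr1:122496274-122497244) was listed at E9.5 only, with a score of 159.8 at percentile 31.2. It was the only stage-specific promoter region of the 3 genes, which had 7 promoter regions in each list. Over all genes, 2146 of 16336 promoter regions were E9.5-specific, while 817 of 15389 were E10.5-specific. Among E9.5 regions of the same score decile and class as the one at -2.24 kb, 47.0% were stage-specific. The region centred in an exon of En1 at 4.56 kb scored 251.4 at E9.5, percentile 48.8, and 206 at E10.5, percentile 44.0.

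The largest gains in rank lay in the gene desert downstream of En1. The region at 159 kb (E9.5 chr1:122657619-122658505) scored 115 at E9.5, percentile 14.2, and 849.6 at E10.5, percentile 82.9. The region at 139 kb (E9.5 chr1:122637402-122638521) scored 168 at E9.5, percentile 33.4, and 1239 at E10.5, percentile 89.8, the highest score of the 3 genes in the E10.5 list. Its neighbour at 137 kb went from percentile 7.71 to 42.5, with scores of 102 and 199. These 3 differences, 68.7, 56.4 and 34.8 points, lay at the percentiles 99.4, 98.3 and 93.4 of the differences of all 29883 shared E9.5 regions. That set includes promoter regions, while these 3 regions are distal. For all shared distal regions, the range given above for shared promoter regions was -37.1 to 48.7 points. The differences of 68.7 and 56.4 points lay above this distal range, and that of 34.8 points lay inside it. None of these comparisons was matched for the starting percentile, which limits how far a region can rise. The region at 257 kb was strong in both lists, with scores of 474 and 583 at percentiles 65.1 and 75.1. Other regions of the desert went the opposite way, from percentile 54.7 to 39.7 for the region about 83.5 kb from the start and from 46.8 to 19.997 for the one at 309 kb.

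All 7 E10.5-specific regions of En1 lay in this desert. Among the 6 described here, the strongest were the regions at 57.3 kb (score 244, percentile 50.4) and 168 kb (score 217, percentile 46.1). The others lay at 240.1 kb (score 157), 143 kb (score 145), 147 kb (score 96.2) and 193 kb (score 88.8), between the percentiles 4.60 and 31.8. With the shared regions they brought the desert from 8 regions at E9.5 to 13 at E10.5. The E9.5-specific regions of the desert, at 42.3 kb (score 99.99) and 132 kb (score 105), stood at the percentiles 6.47 and 9.36. Around the centres of the 7 E10.5-specific regions (150 bases to either side) the GC content had a median of 46.2% (38.5% to 51.2%), beside 52.5% for the 11 shared E10.5 regions of En1. Over all E10.5 regions the medians were 44.2% for stage-specific and 55.8% for shared regions.

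Upstream of En1, 3 weak regions were shared. They rose from the percentiles 7.42, 3.16 and 7.28 at E9.5 to 26.05, 28.9 and 9.28 at E10.5, at -15.7, -7.64 and -5.82 kb. Regions that start so low have little room to fall, and they were not set beside regions of like starting percentile.

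**Figure D2:**
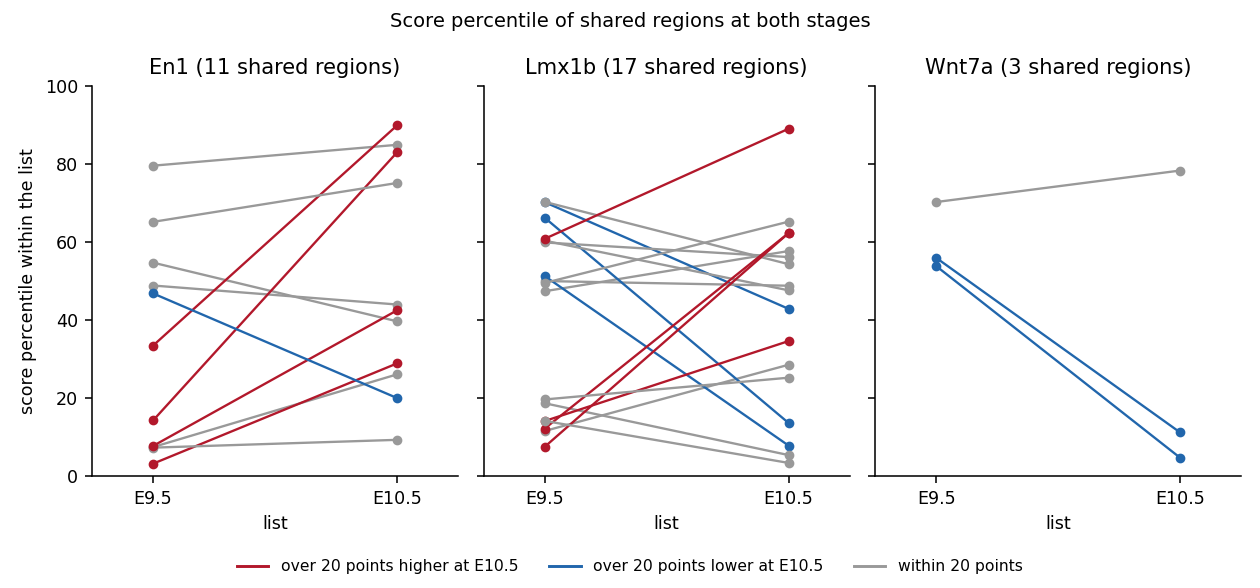
Score percentile (y axis) of each shared E9.5 region and of its highest-scoring E10.5 partner (x axis, list), in red where the partner stood over 20 points higher, in blue where it stood over 20 points lower and in grey otherwise. En1 has 4 red lines and 1 blue one, Lmx1b has 4 and 3, and Wnt7a has 0 and 2.

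Of the 31 shared E9.5 regions of the 3 genes, 8 (25.8%) had a partner over 20 points higher at E10.5, beside 14.3% of all shared E9.5 regions. Over 20 points lower stood 6 (19.4%), beside 13.1% of all shared regions. The limit of 20 points was chosen after the values were seen. Among the 25 distal ones 8 stood higher (32%), beside 24.5% of all distal shared regions, and 4 stood lower (16%), beside 14.9%. Promoter regions made up 6 of the 31. None of these shares was matched for the starting percentile, which limits how far a region can rise or fall. Higher partners were distributed as 4 of 11 for En1, 4 of 17 for Lmx1b and 0 of 3 for Wnt7a. One E10.5 region served as the partner of both Lmx1b regions at -77.6 and -79.1 kb, and with each partner counted once the total was 7.

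By overlap, 13 of the 44 regions at E9.5 were stage-specific, or 29.5% (18.2% to 44.2%), beside 29.9% of all E9.5 regions. At E10.5 it was 9 of 40, or 22.5% (12.3% to 37.5%), beside 35.0% of all E10.5 regions. Stage-specific regions are commoner among weak and distal regions, so each region was also set beside the share of stage-specific regions in its own score decile and class. Summed over the regions, those shares came to 17.7 at E9.5 and 17.6 at E10.5, both above the counts. The 3 genes differed in which list held more of their stage-specific regions.

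For Lmx1b 8 of 25 E9.5 regions were stage-specific (32%, 17.2% to 51.6%) and 2 of 19 at E10.5 (10.53%, 2.94% to 31.4%), beside summed shares of 10.4 and 8.24. The interval for 2 of 19 lay below the 35.0% of all regions. With a reciprocal overlap of at least 50% required, the E10.5 share of Lmx1b was 4 of 19 (21.1%, 8.51% to 43.3%), an interval that included the 39.3% of all E10.5 regions under that rule. For En1 it was 3 of 14 at E9.5 (21.4%, 7.57% to 47.6%) and 7 of 18 at E10.5 (38.9%, 20.3% to 61.4%), beside summed shares of 6.24 and 8.40. Both En1 intervals included the share of all regions. For Wnt7a it was 2 of 5 at E9.5 (40%, 11.8% to 76.9%) and 0 of 3 at E10.5 (0% to 56.1%), beside summed shares of 1.07 and 0.915. Both Wnt7a intervals rest on few regions and included the share of all regions. Counting instead all regions within 100 kb of each gene gave En1 2 of 8 stage-specific regions in each list, because most of its E10.5-specific regions lie farther away. Lmx1b gave 8 of 25 and 2 of 19 in that window, and Wnt7a had 4 of 12 and 0 of 8. In the Wnt7a window 7 of the 12 and 5 of the 8 regions were nearest to another gene.

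**Figure D3:**
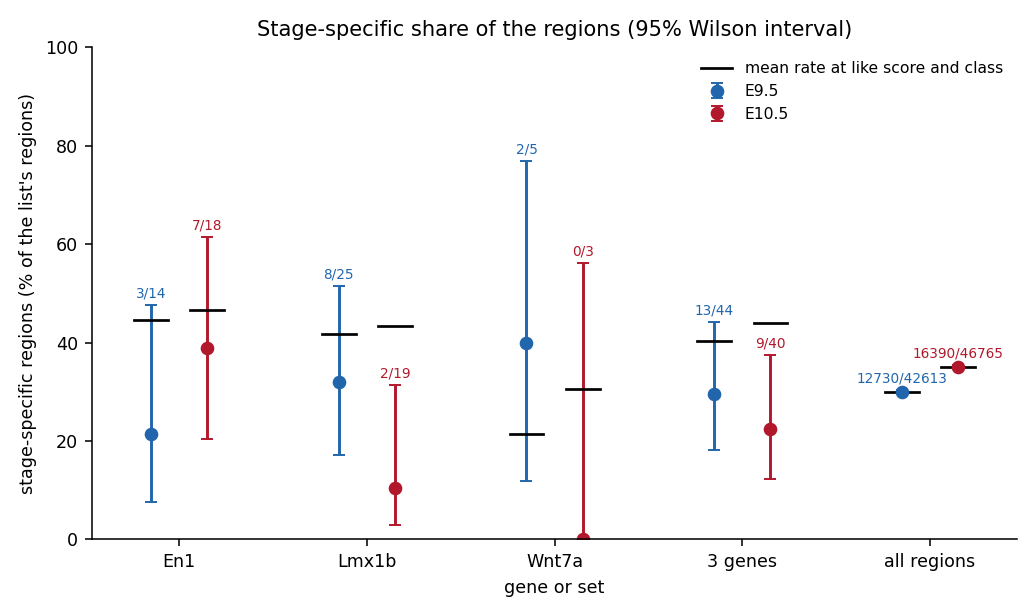
Stage-specific regions as a percentage of the regions of each gene or set (y axis) in the E9.5 list (blue) and the E10.5 list (red), with 95% Wilson intervals, counts above them and a black bar for the mean share at the same score decile and class. Lmx1b at E10.5 (2/19) lies below its bar of 43.4%, and the intervals of En1 and Wnt7a are wide.

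The motifs of the 6 families were counted in the bases around the centre (150 to either side) of every region of the 3 genes. CATCTG, the E-box, was in 8 of 44 regions at E9.5 (18.2%, all regions 23.1%) and in 12 of 40 at E10.5 (30%, all regions 25.2%). It was spread unevenly at E10.5, with 10 of 18 En1 regions and 2 of 19 Lmx1b regions. TAATTA was in 2 regions at E9.5 (4.55%, all 5.12%) and in 4 at E10.5 (10%, all 8.78%). CTTTGAT was in 2 (4.55%, all 4.10%) and 4 (10%, all 5.11%). The SMAD motifs and the TALE site also stood near the shares of all regions, promoter and distal together. CAGACA was in 22.7% and 20% of the regions (all 24.0% and 22.8%), GGCGCC in 11.4% and 15% (all 13.0% and 11.2%), and TGACAG in 25% and 17.5% (all 21.5% and 20.8%). Among distal regions alone, GGCGCC was in 8.11% at E9.5 (all distal 5.91%) and in 4 of 33 at E10.5 (12.1%, all distal 4.56%). At E10.5 the distal shares were 12.1% for CTTTGAT (all distal 6.51%) and 33.3% for CATCTG (31.5%). They were 24.2% for CAGACA (26.1%), 18.2% for TGACAG (23.8%) and 9.09% for TAATTA (12.0%). These few regions were not tested.

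The paralogues En2, Lmx1a and Wnt7b gave a point of comparison within each family. Over all regions 29.9% were stage-specific at E9.5 and 35.0% at E10.5. En2 had 7 regions at E9.5, 2 of them stage-specific, and 5 at E10.5 with 0. The stretch of chromosome nearest to En2 was 69.3 kb, against 401 kb for En1. The interval for 0 of 5 was 0% to 43.4% and included the E10.5 share of En1, 38.9%. These counts therefore cannot show whether En2 differs from En1 in E10.5-specific regions. Lmx1a had 10 regions in each list with 2 stage-specific in each. Wnt7b, another Wnt ligand, had 10 regions with 4 stage-specific at E9.5 and 6 with 0 at E10.5, the same direction as Wnt7a. The best start region of Wnt7b stood at percentile 57.0 at E9.5 and 28.2 at E10.5, and that of Lmx1a at 76.2 and 54.1, while En2 stood at 79.8 and 82.9. In both the Wnt7 and the Lmx1 pairs the start thus ranked lower at E10.5, and in the En pair slightly higher.

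Ectodermal and ridge marker genes were read in the same lists, since Wnt7a and En1 are ectodermal genes in the limb. Of 3 ectoderm markers, Krt8 had a region within 2.5 kb of a start at both stages (percentiles 73.2 and 69.5), Krt18 at E9.5 only (percentile 18.5) and Trp63 at neither. By all assigned regions, Krt8 went from 4 to 3 and Krt18 from 3 to 1. Trp63 went the other way, from 1 to 5, and 4 of these 5 were stage-specific, beside 35.0% of all E10.5 regions. Of 2 markers of the apical ectodermal ridge, Dlx5 had one at both stages (62.7 and 58.2) and Fgf8 at E9.5 only (42.7). All 3 mesenchyme markers, Prrx1, Twist1 and Tbx5, had one at both stages, at percentiles 91.3 and 96.2, 96.9 and 96.5, and 4.11 and 1.36. Markers of the trunk had a region near a start in both lists as well. The somite markers Meox1, Myf5 and Pax1 stood at percentiles 35.3 and 12.1, 59.5 and 27.4, and 68.9 and 78.0. Of the neural tube markers that could be matched, Olig2 stood at 69.6 and 10.7 and Pax6 at 96.6 and 94.9. Of these 5 trunk markers, 3 thus ranked lower at E10.5 by over 20 points, beside 11.1% of all shared promoter regions. Of the 5 ectoderm and ridge markers, 4 thus had a region near a start in the E9.5 list and 2 in the E10.5 list. The 2 that kept one, Krt8 and Dlx5, changed little in rank. Among all E9.5 promoter regions, 2146 of 16336 had no E10.5 counterpart. The part of a changed share of ectoderm or trunk in these results was not tested.

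**Figure D4:**
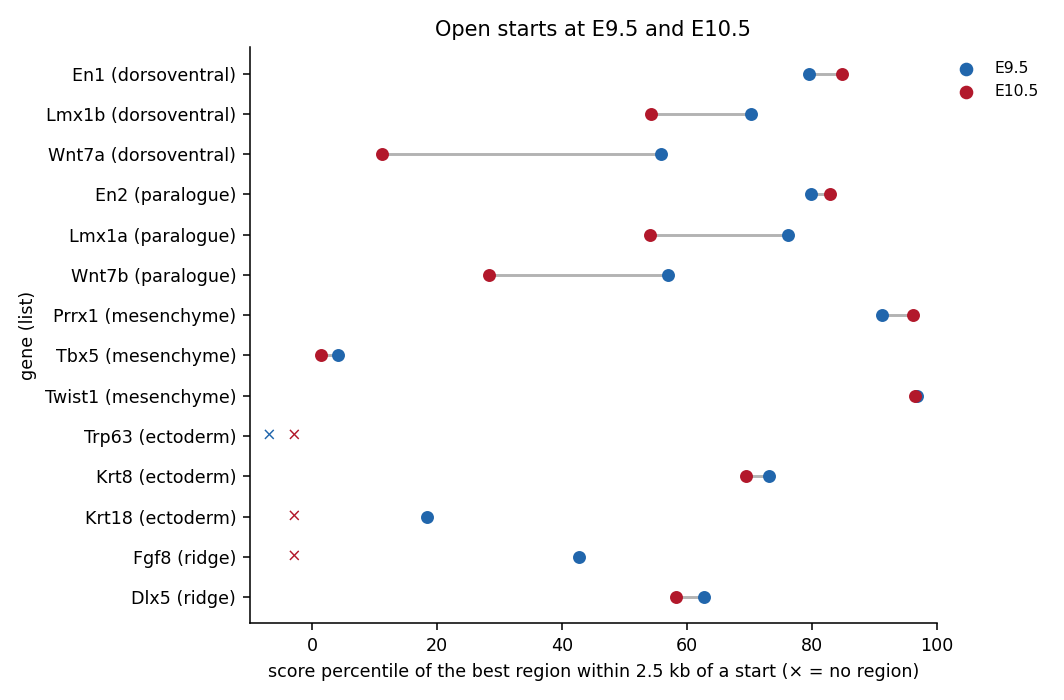
Score percentile (x axis) of the highest-scoring region within 2.5 kb of a start for the 3 dorsoventral genes, their paralogues and marker genes of mesenchyme, ectoderm and ridge (y axis) at E9.5 (blue) and E10.5 (red), with a cross where the list held no such region. Wnt7a goes from 55.9 to 11.2, En1 from 79.5 to 84.9, and Krt18 and Fgf8 have a region at E9.5 only.

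A list of 21 other genes of the pathway (BMP and Wnt ligands and receptors, their nuclear effectors, ectodermal zinc finger factors and LIM genes) was counted in the same way. At E9.5, 30 of their 124 regions were stage-specific (24.2%, 17.5% to 32.4%), beside 29.9% of all regions and a summed share of 39.0. At E10.5 it was 43 of 137 (31.4%, 24.2% to 39.6%), beside 35.0% and a summed share of 51.7. Both intervals included the share of all regions, and Bmp2 alone held 21 of the 43. All 21 had an open start at E9.5 and 20 at E10.5, where Sp6, an ectodermal zinc finger gene, had none. Stage-specific regions were more numerous at E9.5 for 10 genes, more numerous at E10.5 for 6 and equal in number for 5. Lmx1b and Wnt7a fell with the larger group and En1 with the smaller, and the split over all genes is not given here. Among the 8 genes with at least 5 regions in each list, the LIM homeobox gene Lhx2 (2 of 10 and 0 of 8) and the ridge factor Sp8 (6 of 16 and 3 of 14) leaned most to E9.5. The BMP ligand Bmp2 (5 of 14 and 21 of 30) and the LIM homeobox gene Lhx9 (1 of 9 and 3 of 11) leaned most to E10.5, as En1 did.

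By the numbers of shared and stage-specific regions in both lists, taken as square roots and compared by distance over all protein-coding genes, Mecom had exactly the counts of En1 (distance 0), followed by Hmga2 (0.218) and E2f7 (0.268). The genes nearest to Lmx1b were Meis2 (0.470), Shroom3 (0.626) and Casz1 (0.665), with 6 of 21, 8 of 22 and 9 of 22 E9.5 regions stage-specific. Wnt7a had the same counts as 61 other genes, of which Ptp4a2, Nkx1-1 and Cdk8 had the most similar length of territory. With 1 list per stage, this likeness rests on few counts and is a description only.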

How the data were processed

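ATAC-seq libraries of 2 embryos per stage were processed by the authors, who aligned reads to mm9 with Bowtie 1.1.0, keeping uniquely placed reads, called regions in each replicate with MACS 1.4 and combined replicates with MSPC (stringent p 1e-10, weak p 1e-06). The deposited score is, per the labels and values, 10 times the negative log10 of the best replicate p-value. A region over the score limit of 3100 was not among the members. No other columns of per-sample values were present.

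Regions were assigned to the nearest of 70064 protein-coding starts (GENCODE vM1, NCBIM37) in Python 3.11.15 with pandas 2.3.3, numpy 2.4.6 and scipy 1.17.1, and the functions were tested on simulated data. Chromosome ends matched the reference. Lmx1b is shown with the window before its RefSeq start, because the annotated start is a coding base. RefSeq promoters are of build GRCm38 and were placed by sequence only. Sox1, a neural tube marker, was not matched. Named were all promoter and stage-specific regions (1 En1 region and its sequence are not reported here), the 3 highest-scoring shared distal regions per gene and list, and, after their values were seen, regions that moved by over 20 points. Like genes and pathway genes were named by the rules given with them. Members and lists were chosen with earlier results of these data known. Alternatives changed the overlap, the distance rule, the starts, the promoter width and the score limit. No test was made, since each stage had 1 list.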

Additional observations from a re-analysis of the deposited data

How the results depend on the processing

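Of 138 alternative values, 103 stayed within 1.5 times the count or within the interval of the share, and 35 moved further. Using starts of all gene types left 27 regions at E9.5 and 25 at E10.5 for the 3 genes, since noncoding neighbours then take regions. With the lower-scoring 50% of both lists dropped they had 15 and 13 regions, of which 13.3% and 15.4% were stage-specific, so that the order of the shares reversed (-2.05 points for E9.5 minus E10.5, beside 7.05). In that setting the pathway list had 13.1% and 20.9%, and the shares of all regions are not given here. Within 100 kb either side of each gene the E10.5 share of the 3 genes was 11.4%, beside 35.0% of all E10.5 regions. A promoter limit of 1 kb left 4 and 3 promoter regions. A reciprocal overlap of at least 50% gave the pathway list 33.1% at E9.5, beside 33.4% of all E9.5 regions under that rule. Among alternatives chosen after seeing the data, a limit of 30 points left 5 of the 31 shared regions higher at E10.5, beside 8.48% of all shared regions. A limit of 10 points gave 11 of the 31 lower, beside 24.6% of all shared regions. Lmx1b and Wnt7a had the larger stage-specific share at E9.5 in every setting run, and En1 at E10.5 in every setting but the 100 kb window, where the shares were equal. The cause of these moves was not tested where a setting does not itself drop regions. No paired analysis was possible because the replicates were combined into 1 list a stage, and for the same reason leaving out a replicate was not run. Sequencing depth, which limits how weak a region can be listed, is unknown for both lists.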
